A study of Mus musculus with 4 samples.

Results

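The genes of the brain endothelium that build the blood–brain barrier were followed here in RNA from cortical cells of P5 mice that had been isolated with anti-GLAST magnetic beads. The list held 10 genes of the 29224 in the deposited tables: Cldn5, Tjp1, Ocln, Cdh5, Pecam1, Slc2a1, Mfsd2a, Abcb1a, Flt1 and Kdr. They were chosen by name, each matched 1 row, and all 10 had enough counts to be tested. There were 2 libraries from Ezh2 f/f mice, which carry floxed Ezh2 alleles, and 2 from Ezh2 cKO mice, which carry the same alleles together with Aldh1l1-icre. The Cre recombinase is driven by a gene of astrocytes and not by one of endothelial cells, and both groups share the floxed alleles. The number of mice behind each library is not given in the sources used here, so p-values measure the spread between libraries, which may be technical.

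The blood–brain barrier is made by endothelial cells whose walls are sealed by tight junctions. These cells carry nutrients across with dedicated transporters and pump many drugs back into the blood. Pericytes and astrocytic endfeet surround the vessels, and WNT and VEGF signals from neural cells help to form and maintain them. The comparison asks whether transcripts of the barrier differed in level between Ezh2 f/f and Ezh2 cKO libraries, in a study concerned with endfoot coverage and barrier integrity.

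Of the 10 genes, 4 passed an adjusted p of 0.05 in edgeR, and they moved in both directions. Slc2a1, the glucose transporter of the barrier, fell 2.52-fold in Ezh2 cKO, and Cdh5, the adherens junction cadherin of endothelium, fell 1.23-fold. Mfsd2a, a lipid transporter, rose 1.60-fold, and Flt1, a VEGF receptor, rose 1.45-fold. None of the 3 tight junction genes passed the test: Cldn5, Tjp1 and Ocln stood at 0.946, 1.03 and 1.27 times their Ezh2 f/f level. Of all 16793 genes tested, 68.4% were called in either direction, 34.7% as higher and 33.6% as lower, against 4, 2 and 2 of the 10 barrier genes. Only Slc2a1 among them was called with at least a 2-fold change, as were 33.0% of all genes. The median log2 fold change was 0.09 over the 10 genes and 0.02 over all genes tested, and the median size without its sign was 0.26 against 0.69.

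Total counts per library ranged from 16273308 to 17522152. Ezh2, the targeted gene, averaged 23.1 ± 3.25 CPM in Ezh2 f/f against 10.7 ± 1.77 CPM in Ezh2 cKO (SD, n = 2 each), where CPM stands for counts relative to library size after TMM normalisation. Its log2 fold change by edgeR's quasi-likelihood test was -1.11, with an adjusted p of 3.26e-05. The label of astrocytes was compared with marker lists by summed level, as FPKM, which scales counts to gene length and library size. The sum of 12 neuron genes was 2290 and 2357 FPKM in Ezh2 f/f against 2270 and 2265 in Ezh2 cKO. Most of it was Tubb3, a neuronal tubulin, whose level fell from a mean of 1878 to 1215 FPKM while 9 of the 12 genes were higher in Ezh2 cKO. The sum of 12 astrocyte genes was lower in every library, at 98.8 and 99.4 FPKM in Ezh2 f/f and at 496 and 446 in Ezh2 cKO. Aldh1l1, whose regulatory sequence drives the Cre, had a mean level of 16.6 FPKM in Ezh2 f/f and 15.8 FPKM in Ezh2 cKO. All libraries therefore held transcripts of several cell types, and a smaller number of cells of a type cannot be told apart from less RNA per cell. No listed marker was absent from the tables or at 0 in all libraries.

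The promoters of Slc2a1, Mfsd2a, Flt1 and Cldn5 are shown because the first 3 had the largest changes past the test and Cldn5 was the most abundant of the 10. RefSeq windows on GRCm38.p6 run from 250 bases before to 50 bases after a gene's start, and 8 of the 10 genes matched by symbol. They are written 5′ to 3′ along the gene's strand, with CpG dinucleotides, which are dense where Polycomb complexes bind promoters, in capitals. The windows are chr4:119108495-119108794 on the plus strand for Slc2a1, chr4:122961139-122961438 on the minus strand for Mfsd2a, chr5:147725962-147726261 on the minus strand for Flt1 and chr16:18776597-18776896 on the plus strand for Cldn5.
Slc2a1: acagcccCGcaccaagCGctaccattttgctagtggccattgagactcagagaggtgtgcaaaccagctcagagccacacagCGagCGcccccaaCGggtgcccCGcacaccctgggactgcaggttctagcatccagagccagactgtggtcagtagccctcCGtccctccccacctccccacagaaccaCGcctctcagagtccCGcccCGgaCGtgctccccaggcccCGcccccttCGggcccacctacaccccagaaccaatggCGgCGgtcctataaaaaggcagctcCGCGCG
Mfsd2a: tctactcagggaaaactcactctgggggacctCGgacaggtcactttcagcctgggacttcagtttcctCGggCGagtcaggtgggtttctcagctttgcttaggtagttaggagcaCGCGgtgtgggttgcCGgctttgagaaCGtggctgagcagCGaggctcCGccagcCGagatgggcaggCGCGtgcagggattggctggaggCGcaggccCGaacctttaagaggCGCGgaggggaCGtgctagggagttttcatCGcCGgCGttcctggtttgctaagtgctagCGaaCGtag
Flt1: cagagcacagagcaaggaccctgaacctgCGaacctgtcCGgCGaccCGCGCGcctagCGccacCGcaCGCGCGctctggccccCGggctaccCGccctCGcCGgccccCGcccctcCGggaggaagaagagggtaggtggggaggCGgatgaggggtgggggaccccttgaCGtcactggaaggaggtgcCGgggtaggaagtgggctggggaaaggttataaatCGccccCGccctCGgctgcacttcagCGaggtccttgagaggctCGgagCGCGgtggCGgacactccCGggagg
Cldn5: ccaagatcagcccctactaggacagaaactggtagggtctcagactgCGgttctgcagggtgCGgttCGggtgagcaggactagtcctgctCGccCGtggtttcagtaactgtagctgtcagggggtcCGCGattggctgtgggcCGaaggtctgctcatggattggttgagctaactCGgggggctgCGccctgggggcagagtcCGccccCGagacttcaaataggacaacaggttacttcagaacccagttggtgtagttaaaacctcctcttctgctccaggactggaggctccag

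These windows held 18 CpGs in Slc2a1, 22 in Mfsd2a, 29 in Flt1 and 12 in Cldn5, where the median over 32851 RefSeq promoter windows was 7. Slc2a1, which fell, and Mfsd2a and Flt1, which rose, thus all had more CpGs than the median window. So did genes that were not called: Cldn5, Kdr (19) and Ocln (24 and 17 in its windows). Each of the 4 windows shown covers the start of the gene's GENCODE span printed here. The RefSeq windows of Abcb1a (2 CpGs) and Tjp1 (31 CpGs) lie away from the starts of their spans and are not described further. Cdh5, which was also called lower, and Pecam1 had no window. The hypoxia response core ACGTG, searched on both strands, was found 1 time in Slc2a1 and 2 times in Mfsd2a, and in neither Flt1 nor Cldn5. It is present in 19.6% of all windows. The ETS core GGAAG, also on both strands, was found 3 times in Flt1 and in none of the other 3, against 71.4% of all windows.

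**Figure D1:**
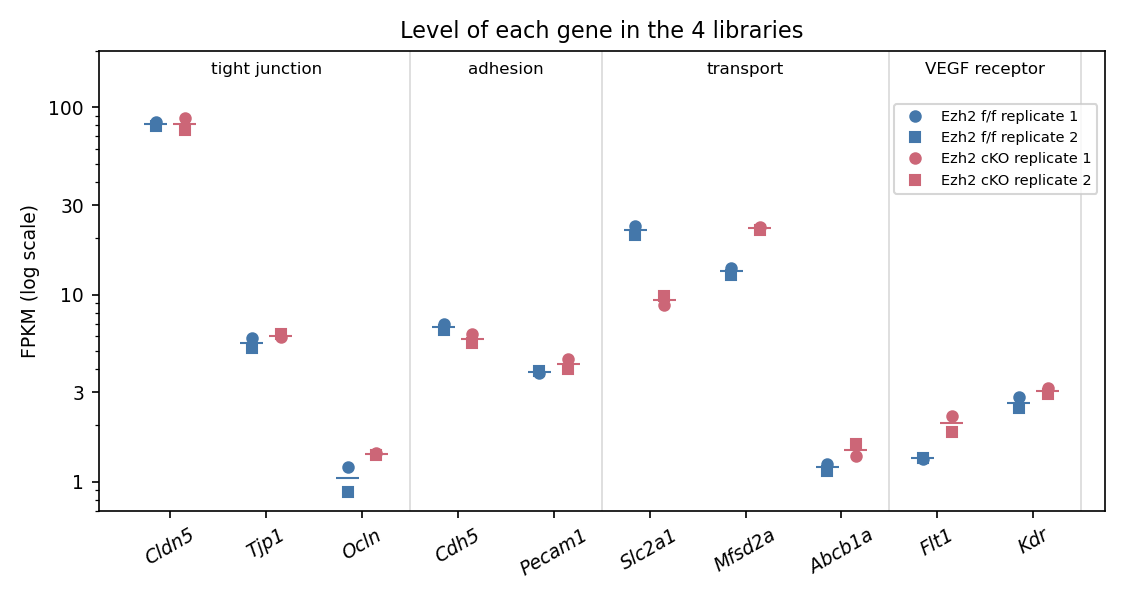
FPKM on a log axis of the 10 barrier genes in each library, grouped by role; circles and squares are replicates 1 and 2, and short bars are group means. Cldn5 lies above all others at 75.5 to 87.5 FPKM, and Slc2a1 and Mfsd2a exchange places between the groups.

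The levels of the genes spanned nearly the same order in both groups, as the plot of FPKM by gene shows. In Ezh2 f/f, Cldn5 was highest with a mean of 81.4 ± 2.96 FPKM (SD, n = 2), followed by Slc2a1, Mfsd2a, Cdh5, Tjp1, Pecam1, Kdr, Flt1, Abcb1a and Ocln. Each of these was above the next in both libraries, except Abcb1a and Ocln, whose libraries overlapped. In Ezh2 cKO, Mfsd2a stood above Slc2a1 and Tjp1 above Cdh5, although the libraries of Tjp1 and Cdh5 overlapped, as did those of Abcb1a and Ocln. Summed over the 10 genes the level was 144.0 and 134 FPKM in Ezh2 f/f against 144.0 and 131 FPKM in Ezh2 cKO, and the groups overlapped. Most of the sum was Cldn5, with means of 81.4 and 81.5 FPKM. Slc2a1 fell from a mean of 22.1 to 9.29 FPKM while Mfsd2a rose from 13.3 to 22.6 FPKM. The level of Cldn5 was 7.51 and 6.82 times that of Slc1a3, the gene for the GLAST antigen used in the sort, in Ezh2 f/f and 2.43 and 2.07 times in Ezh2 cKO.

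Among the tight junction genes, Cldn5 (GRCm38 chr16:18776847-18778262, plus strand) encodes claudin-5, the strand-forming protein that seals brain endothelium. It was at 121 and 116 CPM in Ezh2 f/f and at 122 and 103 CPM in Ezh2 cKO. The Ezh2 f/f values lie between the Ezh2 cKO values, so the groups overlap. The log2 fold change was -0.08 (standard error 0.10, 95% interval -0.30 to 0.14, adjusted p = 0.492 in edgeR), which bounds the ratio of Ezh2 cKO to Ezh2 f/f between 0.814 and 1.10. Without Ezh2 cKO replicate 2 the log2 fold change was 0.04. Tjp1 (GRCm38 chr7:65296165-65527781, minus strand) encodes ZO1, a scaffold that ties the junction to actin and is made in many cell types. It was at 46.8 and 41.7 CPM in Ezh2 f/f and at 45.3 and 46.2 CPM in Ezh2 cKO, with overlapping groups. Its log2 fold change was 0.05 (standard error 0.10, 95% interval -0.17 to 0.26, adjusted p = 0.692), and it was -0.03 without Ezh2 f/f replicate 2.

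Ocln (GRCm38 chr13:100496507-100552718, minus strand) encodes occludin, a membrane protein of the tight junction. It had 89 and 61 counts in Ezh2 f/f against 104 and 98 in Ezh2 cKO, equal to 5.21 and 3.88 against 5.90 and 5.66 CPM. Both Ezh2 cKO libraries lay above both Ezh2 f/f libraries, but the libraries of Ezh2 f/f were widely spread. Its log2 fold change was 0.34 (standard error 0.23, adjusted p = 0.192), and the 95% interval ran from -0.14 to 0.83, the widest of the 10 genes.

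The adhesion genes were Cdh5 and Pecam1. Cdh5 (GRCm38 chr8:104101625-104144511, plus strand) encodes VE-cadherin, which holds endothelial cells together. It had 513 and 444 counts in Ezh2 f/f against 446 and 386 in Ezh2 cKO, or a mean of 29.1 ± 1.26 against 23.8 ± 2.13 CPM (SD, n = 2 each). In CPM the groups do not overlap. The log2 fold change was -0.29 (standard error 0.12, 95% interval -0.55 to -0.03, adjusted p = 0.0443 in edgeR). This call was lost in 10 of 12 alternative analyses, among them DESeq2 (adjusted p = 0.0948) and the fit with a replicate block (adjusted p = 0.0583), and its adjusted p ranged from 0.0331 to 0.274 over the 12. Of the single libraries, leaving out Ezh2 f/f replicate 1 (adjusted p = 0.147), Ezh2 cKO replicate 1 (0.0612) or Ezh2 cKO replicate 2 (0.274) ended it.

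Pecam1 (GRCm38 chr11:106654217-106750628, minus strand) encodes CD31, an adhesion molecule found on endothelium and also on some blood cells. It was at 24.5 and 25.1 CPM in Ezh2 f/f and at 27.7 and 23.9 CPM in Ezh2 cKO. The Ezh2 f/f values lie between those of Ezh2 cKO. Its log2 fold change was 0.06 (standard error 0.12, 95% interval -0.21 to 0.32, adjusted p = 0.692), and -0.05 without Ezh2 cKO replicate 1.

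**Figure D2:**
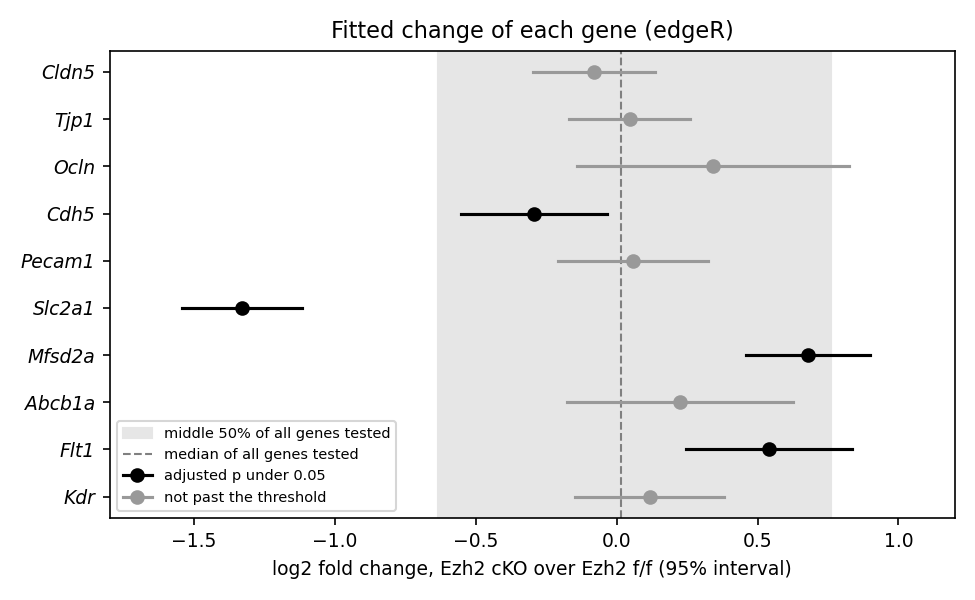
Log2 fold change of Ezh2 cKO over Ezh2 f/f for each of the 10 genes from edgeR, with 95% intervals; black marks genes with an adjusted p under 0.05, and the grey band holds the middle 50% of all genes tested. Slc2a1, at -1.33, is the only gene outside the band.

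Of the transport genes, Slc2a1 (GRCm38 chr4:119108711-119137983, plus strand) encodes GLUT1, which carries glucose from blood into brain and is also made outside endothelium, for example in the choroid plexus. It had 1434 and 1185 counts in Ezh2 f/f against 532 and 575 in Ezh2 cKO, or 84.0 and 75.4 against 30.2 and 33.2 CPM. The groups are far apart compared with the spread within them. The log2 fold change was -1.33 (standard error 0.10, 95% interval -1.54 to -1.12, adjusted p = 4.58e-08 in edgeR), and over the 12 alternatives it stayed between -1.41 and -1.16, past the threshold in each. Transcripts of the choroid plexus moved in the same direction: the 10 choroid plexus and ependymal genes summed to 320 and 625 FPKM in Ezh2 f/f and to 9.79 and 9.26 FPKM in Ezh2 cKO, mostly through Ttr. Of the 8 that were tested, 5 were lower and 2 higher, so 87.5% were called, against 68.4% of all genes tested. Within Ezh2 f/f, Ttr had 6326 counts in replicate 1 and 11598 in replicate 2, and Slc2a1 had 1434 and 1185. The part of choroid plexus transcripts in the fall of Slc2a1 was not tested.

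Mfsd2a (GRCm38 chr4:122946850-122961188, minus strand) encodes the transporter of lysophosphatidylcholine that carries omega-3 fatty acids into the brain and restrains transcytosis in barrier endothelium. It was at 32.0 and 29.7 CPM in Ezh2 f/f and at 50.9 and 48.0 CPM in Ezh2 cKO. Both Ezh2 cKO libraries lie well above both Ezh2 f/f libraries. The log2 fold change was 0.68 (standard error 0.10, 95% interval 0.46 to 0.90, adjusted p = 4.34e-05 in edgeR), and it ranged from 0.63 to 0.76 over the 12 alternatives, past the threshold in each.

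Abcb1a (GRCm38 chr5:8660077-8748575, plus strand) encodes the P-glycoprotein that pumps drugs out of brain endothelium. It had 120 and 102 counts in Ezh2 f/f against 130 and 146 in Ezh2 cKO, or 7.03 and 6.49 against 7.37 and 8.43 CPM. The groups do not overlap, but the difference did not pass the test (log2 fold change 0.22, standard error 0.19, 95% interval -0.18 to 0.63, adjusted p = 0.301). Abcb1b, its close copy, could share reads with it. It had 6, 7, 4 and 5 counts in the 4 libraries, too few to be tested, so the FPKM of Abcb1a was 21.2 to 47.4 times as high.

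Flt1 (GRCm38 chr5:147561604-147726011, minus strand) and Kdr (chr5:75932827-75978458, minus strand) encode VEGFR1, which binds VEGF tightly and can act as a trap for it, and VEGFR2, the main signalling receptor. Flt1 was at 18.4 and 18.8 CPM in Ezh2 f/f and at 29.9 and 24.1 CPM in Ezh2 cKO. The Ezh2 f/f libraries are close together and both lie below the Ezh2 cKO libraries, which differ more. The log2 fold change was 0.54 (standard error 0.14, 95% interval 0.24 to 0.84, adjusted p = 0.00312 in edgeR). Without Ezh2 cKO replicate 1 it was 0.37 and no longer passed, with an adjusted p of 0.077. The adjusted p ran from 7.42e-04 to 0.0817 across the 12 alternative analyses. Kdr was at 26.2 and 23.2 CPM in Ezh2 f/f and at 28.0 and 25.6 CPM in Ezh2 cKO, with overlapping groups. Its log2 fold change was 0.12 (standard error 0.12, 95% interval -0.15 to 0.38, adjusted p = 0.413). In CPM the groups did not overlap in 6 of the 10 genes, and they did not overlap in 84.3% of all genes tested. In FPKM, which is scaled to the library total without TMM factors, the libraries of Tjp1, Pecam1 and Kdr also separated, with Ezh2 cKO above.

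**Figure D3:**
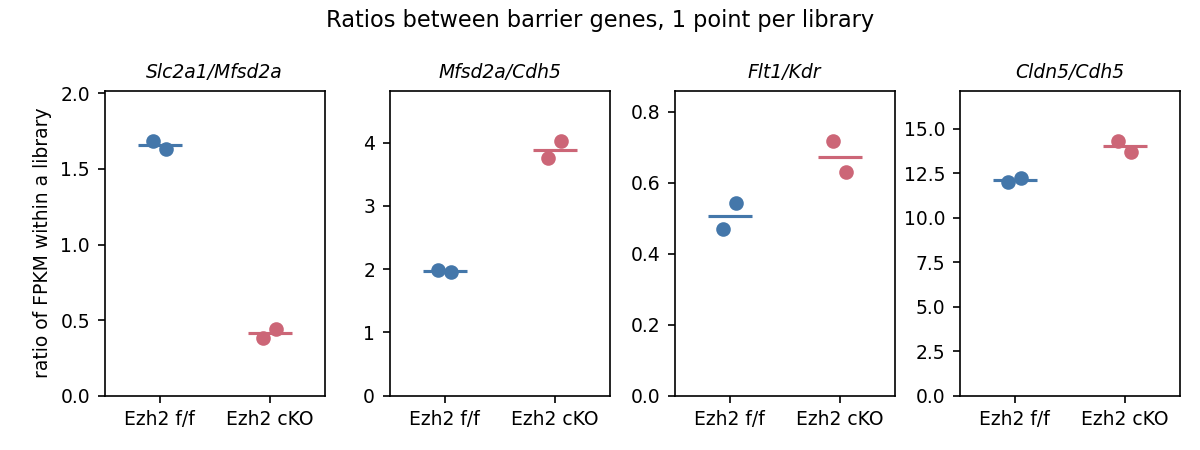
Ratio of FPKM between pairs of barrier genes within each library, with 1 point per library, bars at group means and axes from 0. Slc2a1 over Mfsd2a is 1.63 to 1.68 in Ezh2 f/f and 0.381 to 0.444 in Ezh2 cKO, and Mfsd2a over Cdh5 is 1.96 to 1.99 and 3.76 to 4.02.

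Ratios of FPKM within a library set the genes against each other without reference to the rest of the transcriptome. The level of Slc2a1 was 1.68 and 1.63 times that of Mfsd2a in Ezh2 f/f, but 0.381 and 0.444 times in Ezh2 cKO. Relative to Cdh5, the level of Mfsd2a was 1.99 and 1.96 in Ezh2 f/f against 3.76 and 4.02 in Ezh2 cKO. The ratio of Cldn5 to Cdh5 was 11.99 and 12.2 in Ezh2 f/f against 14.3 and 13.7 in Ezh2 cKO. The ratio of Flt1 to Kdr was 0.470 and 0.542 in Ezh2 f/f against 0.716 and 0.629 in Ezh2 cKO. In all 4 ratios the groups do not overlap. Each pair holds a gene called above, so the ratios are not independent of those calls. Among single genes, the groups did not overlap in CPM in 84.3% of all genes tested. With 2 libraries against 2, the smallest p an exact permutation test can give is 0.333, so the ratios are given as values without a test.

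The wider endothelial programme was read from 28 other identity genes, all of which were tested. Of these, 13 were higher, 3 lower and 12 not called, a share of 57.1% called, and their median log2 fold change was 0.18. With DESeq2 8 were higher, and without Ezh2 cKO replicate 1 there were 7. The most abundant were Itm2a (27.1 against 35.6 FPKM, log2 fold change 0.31), Rgcc (7.80 against 29.8 FPKM, 1.85) and Eng, an endothelial co-receptor for TGF-beta ligands (9.13 against 13.5 FPKM, 0.48), all 3 higher in Ezh2 cKO, although Itm2a did not pass without Ezh2 cKO replicate 2 (adjusted p = 0.0649 in edgeR). Ly6c1, a surface antigen of brain endothelium, rose by a log2 fold change of 1.58. Robo4, an endothelial receptor that stabilises vessels, and Podxl, a sialomucin of the vessel lumen, had log2 fold changes of -1.07 and -0.93. The summed level of the 28 genes was 134 and 127 FPKM in Ezh2 f/f against 182 and 168 FPKM in Ezh2 cKO. Rgcc, with means of 7.80 and 29.8 FPKM, made up a large part of that difference. The share called was below the 68.4% of all genes tested. By direction, 34.7% of all genes tested were called higher and 33.6% lower, so the list leaned more to higher calls than all genes did. No test of a common movement was made.

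Of 16 other junction genes 15 were tested, and 4 were higher, 6 lower and 5 not called (median log2 fold change -0.25). The share called was 66.7%, close to the 68.4% of all genes tested. Cldn3, another claudin, had a log2 fold change of -1.33, while Cldn12 was at 1.16 and Jam2, a junctional adhesion molecule, at 1.18, all past the test. Which cell types these junction transcripts came from was not tested. Ctnnb1, which encodes beta-catenin, was the most abundant at 48.0 against 60.5 FPKM (log2 fold change 0.25, adjusted p = 0.0461 in edgeR). That call was lost in 7 of 12 alternatives, among them DESeq2 (adjusted p = 0.0636) and leaving out Ezh2 f/f replicate 2 (log2 fold change 0.093, adjusted p = 0.433), Ezh2 cKO replicate 1 (0.223) or Ezh2 cKO replicate 2 (0.137). Cdh2, the N-cadherin of neural cells and pericytes, fell from 18.1 to 8.96 FPKM (log2 fold change -1.10). Esam, an endothelial adhesion molecule, was at 10.5 and 12.8 FPKM and did not pass (log2 fold change 0.21, adjusted p = 0.120).

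Of 17 other barrier transporter genes 16 were tested, with 11 higher, 3 lower and 2 not called (median log2 fold change 1.10). Among those tested 87.5% were called, against 68.4% of all genes tested, where 34.7% were higher and 33.6% lower. Slco1a4, an organic anion carrier of brain endothelium, had 7 and 9 counts in Ezh2 f/f against 160 and 141 in Ezh2 cKO (log2 fold change 4.12). Slc16a1, the monocarboxylate transporter MCT1, rose from 3.25 to 18.2 FPKM (2.40), and Bsg, its chaperone basigin, from 293 to 428 FPKM (0.46). Slc7a5, the carrier of large neutral amino acids, fell from 122 to 64.3 FPKM (-1.01), its partner Slc3a2 from 57.8 to 51.8 (-0.24), and the cationic amino acid carrier Slc7a1 from 8.52 to 7.30 (-0.31). Under limma on FPKM the number of lower transporter genes was 1. The edgeR call of Slc3a2 was also lost without Ezh2 f/f replicate 1 (adjusted p = 0.0527), Ezh2 cKO replicate 1 (0.0723) or Ezh2 cKO replicate 2 (0.0865), and that of Slc7a1 without Ezh2 f/f replicate 1 (0.0574) or Ezh2 cKO replicate 2 (0.102). Many of these carriers are also made by astrocytes, neurons or microglia.

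**Figure D4:**
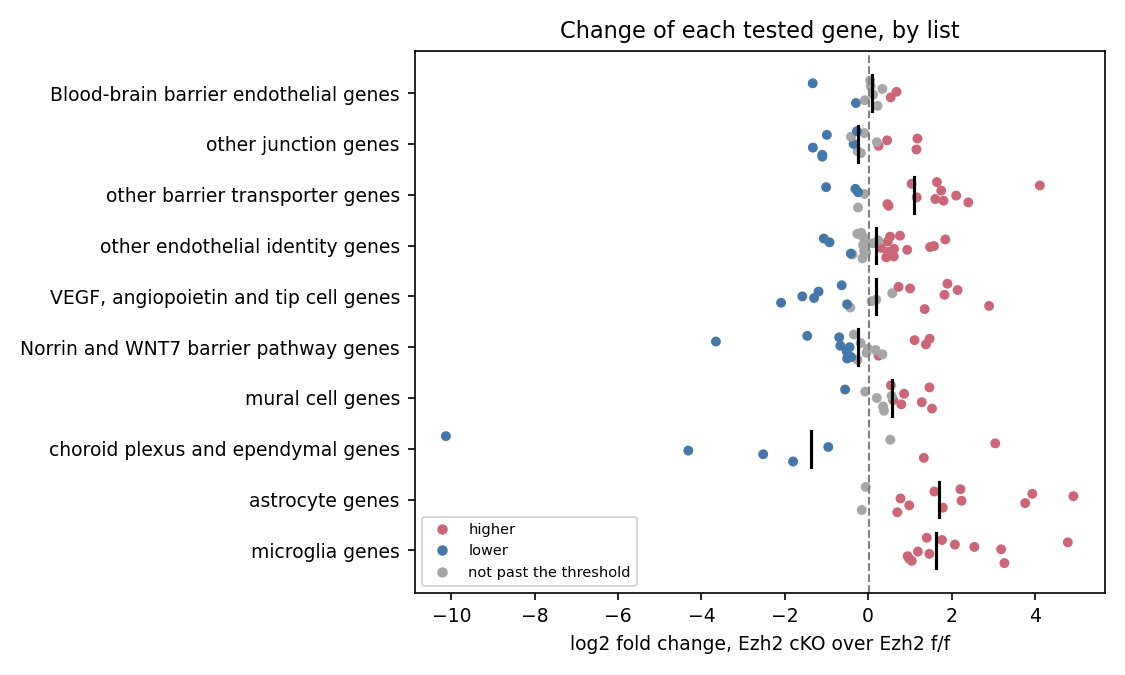
Log2 fold change of Ezh2 cKO over Ezh2 f/f for every tested gene of 10 lists; red marks genes called higher, blue those called lower and grey the rest, vertical offsets within a list only separate points, black bars are list medians and the dashed line is the median of all genes. The 10 barrier genes lie between -1.33 and 0.68, while Ttr of the choroid plexus list lies at -10.1.

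The ligands and partners of the VEGF receptors were taken from 18 VEGF, angiopoietin and tip cell genes, of which 17 were tested, 7 higher and 6 lower (median log2 fold change 0.20). In this list 76.5% of tested genes were called, against 68.4% of all genes tested. Vegfb, a ligand of VEGFR1, was at 27.4 and 48.2 FPKM (log2 fold change 0.73), and Vegfa, a ligand of both receptors, at 6.01 and 12.8 FPKM (1.00), and both passed the test. Apln, the ligand apelin of endothelial tip cells, had the largest rise at 2.90, and Shc2, an adaptor protein also of neurons, followed at 2.15. Dll4, the Notch ligand of tip cells, fell from 8.10 to 2.01 FPKM (-2.09), and Nrp2, a VEGF and semaphorin co-receptor, from 14.5 to 5.16 FPKM (-1.58). Plcg1, a phospholipase that acts after VEGFR2, was at 29.9 and 13.9 FPKM (-1.19) and Aplnr, the apelin receptor, at 11.4 and 8.53 FPKM (-0.51), both lower.

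Norrin and WNT7 ligands induce barrier genes in brain endothelium through beta-catenin. Of 19 genes of this pathway, all tested, 4 were higher, 8 lower and 7 not called (median log2 fold change -0.26). The share called was 63.2%, below the 68.4% of all genes tested. Wnt7b fell from 52.5 to 20.2 FPKM (log2 fold change -1.46), whereas Ndp, which encodes Norrin, was at 1.55 and 4.28 FPKM (1.38) and its receptor partner Tspan12 at 1.14 and 3.37 FPKM (1.47), both higher. Tnfrsf19, among the 3 most abundant genes of the list, rose by a log2 fold change of 1.11. The activity of the pathway was not tested. Tcf7l2, a transcription factor of the pathway, had 88 and 1457 counts in Ezh2 f/f against 60 and 75 in Ezh2 cKO, so its fall (log2 fold change -3.65, adjusted p = 0.00144 in edgeR) rests on Ezh2 f/f replicate 2. Without that library it was -0.41 (adjusted p = 0.179), and the call was also lost without Ezh2 cKO replicate 1 (0.086) or Ezh2 cKO replicate 2 (0.0634). Under limma on FPKM the number of lower pathway genes was 4.

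Cells that surround or share vessels were compared in the same fit. The shares of tested genes called were 61.5% for mural cells, 80.0% for fibroblasts and 57.1% for erythrocytes. Over all genes tested the share was 68.4%, with 34.7% called higher and 33.6% called lower. Of 13 tested mural cell genes 7 were higher and 1 lower (median log2 fold change 0.56), and their sum was 77.9 and 85.4 FPKM in Ezh2 f/f against 144 and 128 FPKM in Ezh2 cKO. Rgs5, a pericyte gene, was at 11.3 and 33.1 FPKM and Vtn at 37.6 and 58.1 FPKM, both higher. Of 10 perivascular and meningeal fibroblast genes 3 were higher and 5 lower, with Fmod higher at a log2 fold change of 0.46 and Col1a1 at 11.1 and 10.5 FPKM (not called, but lower without Ezh2 f/f replicate 2). Of 7 tested erythrocyte genes 3 were higher and 1 lower, with Hbb-bs at 205 and 272 FPKM (higher) and Hba-a1 at 251 and 273 FPKM (not called). The edgeR call of Hbb-bs was lost without Ezh2 f/f replicate 1 (adjusted p = 0.159), Ezh2 cKO replicate 1 (0.152) or Ezh2 cKO replicate 2 (0.0608). The 2 alpha-globin copies, Hba-a1 and Hba-a2, could share reads.

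Neural and immune lists had larger median changes than the 10 barrier genes, and no test of that difference was made. The shares called were 81.8% for endfoot, 83.3% for astrocyte and 100% for microglia genes. They were 91.7% for both oligodendrocyte lineage and neuron genes, against 68.4% of all genes tested, where 34.7% were higher and 33.6% lower. Of 11 astrocyte endfoot genes 7 were higher and 2 lower (median log2 fold change 0.68), and the most abundant were Mlc1, a membrane protein of endfeet, at 25.2 and 79.8 FPKM and Agrn, a matrix protein of the vessel wall, at 55.4 and 43.9 FPKM. Of 12 astrocyte genes 10 were higher and 0 lower (median 1.69), also 10 and 0 at an unadjusted p under 0.05, led by Aldoc and Gfap at 133 and 132 FPKM in Ezh2 cKO. All 12 microglia genes were higher (median 1.62), with C1qb at 20.1 and 41.9 FPKM and C1qa at 16.3 and 35.6. Of 12 oligodendrocyte lineage genes 11 were higher and 0 lower (median 1.60; 11 and 0 at an unadjusted p under 0.05), with Olig1 at 18.9 and 78.4 FPKM and Mbp at 4.63 and 53.2. Of 12 neuron genes 9 were higher and 2 lower (median 0.97), with Tubb3 at 1878 and 1215 FPKM and Stmn2 at 225 and 329. Foxj1, an ependymal gene, was at 7.25 and 3.95 FPKM. The part of these cell types in the levels of the 10 barrier genes was not tested.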

How the data were processed

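RNA of GLAST-sorted cortical cells from P5 mice was sequenced, with 2 libraries for each genotype. The authors deposited raw counts of reads per gene and FPKM, in which each count is divided by gene length and library total. The processing notes name Bowtie2 2.2.3, TopHat2 2.0.12, HTSeq 0.6.0 and mm9, without roles; use of strand is not given in the sources used here. Gene positions in the tables equal those of GENCODE M21 on GRCm38 for 597 of 28799 shared identifiers and for 0 of the 10 barrier genes, so the build is unsettled, no deposited position is printed, gene spans are those of GENCODE M21 matched by identifier, and RefSeq promoter sequences were matched by symbol. In the deposited positions, Tjp1, Slc2a1, Abcb1a and Cdh5 overlap genes with at most 33 counts over all libraries. Columns of the authors' own comparison (fold changes, p-values) were not used, and 0 sample columns were left out.

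Counts were filtered with filterByExpr (16793 of 29224 genes left), normalised by TMM and compared with edgeR 4.0.16's quasi-likelihood test, with group as the only term and Benjamini-Hochberg adjustment over all genes tested. R 4.3.3, limma 3.58.1, DESeq2 1.42.0 and Python 3.11.15 were also used. The fits were tested on simulated data, where limma on FPKM made more false calls than edgeR. The simulation changed 200 genes and gave all genes the same dispersion, whereas 68.4% of all genes tested were called here. It therefore cannot show how the methods compare on these data. A count of 3 corresponds to 0.170 to 0.191 CPM; this covers counting error only. Chi-square over degrees of freedom between the libraries of a group was 9.70 for Ezh2 f/f against 6.10 for Ezh2 cKO, so none was counted as a repeat of another. Alternatives were DESeq2, its size factors, other filters, a replicate block, and each library left out. Further alternatives were limma on log2(FPKM + 1), which understates the change of low genes, and on log2(FPKM + 0.1).

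The members and lists were chosen with earlier results of these data known. The genes named are the 10 members, Ezh2, Abcb1b, in each pathway list the 3 with the highest mean FPKM and up to 2 higher and 2 lower with the largest change among those called, and in each cell type list the 2 with the highest mean FPKM. Slc1a3, Aldh1l1, Vegfa and Hba-a2 were added after their values were seen.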

Additional observations from a re-analysis of the deposited data

How the results depend on the processing

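Slc2a1 and Mfsd2a kept their direction and passed the threshold in all 12 alternatives, Flt1 kept its direction and passed in 10, and Cdh5 kept its direction and passed in 2. The 10 barrier genes counted 2 higher and 2 lower, where 68.4% of all genes tested were called. Over all genes the share called was 58.8% under DESeq2, 38.9% without a filter and 73.3% with a mean count of at least 50. Under limma it was 70.3% on log2(FPKM + 1), 69.7% on log2(FPKM + 0.1) and 34.0% on log2(FPKM + 1) without a filter. With the replicate block it was 67.8%. The higher count was 1 under limma on log2(FPKM + 1) without a filter and 1 to 2 when single libraries were left out. The lower count was 1 under DESeq2, without a filter, with a mean count of at least 50, under each of the 3 limma fits and with the replicate block, and 1 to 2 without single libraries. Their median log2 fold change was 0.16 under limma on log2(FPKM + 0.1) and 0.054 to 0.18 without single libraries.

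The replicate number is no stated batch, and with 2 pairs the deviations of same-numbered libraries correlated at r = 0.13 across genes. With the replicate block 5795 genes were higher and 5599 lower, against 5831 and 5650 without it, and among the 10 genes only the call of Cdh5 was lost.

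For the other lists, the higher junction genes numbered 2 under DESeq2 and without a filter and 2 to 3 without single libraries. The lower transporter genes numbered 1 under each limma fit and 1 to 3 without single libraries. The higher endothelial identity genes numbered 8 under DESeq2 and 7 to 12 without single libraries, and the lower ones 5 with DESeq2 size factors in edgeR and 2 to 6 without single libraries. The lower Norrin and WNT7 pathway genes numbered 4 under each limma fit and 5 to 8 without single libraries, and the lower fibroblast genes 2 under limma without a filter and 3 to 6 without single libraries. The lower erythrocyte genes numbered 0 with a mean count of at least 50 and under each limma fit, 2 with the replicate block and 1 to 2 without single libraries, and the higher ones 0 to 3 without single libraries. The higher choroid plexus and ependymal genes numbered 1 under DESeq2, without a filter and under both limma fits with a pseudocount of 1, 0 with a mean count of at least 50 and under limma on log2(FPKM + 0.1), and 1 to 3 without single libraries.

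Leaving out single libraries turned the sign of genes that had not passed: the log2 fold change ranged from -0.21 to 0.036 for Cldn5, -0.032 to 0.14 for Tjp1, -0.052 to 0.16 for Pecam1, -0.32 to 0.050 for Col1a1 and -0.084 to 0.18 for Hba-a1. Without Ezh2 f/f replicate 2 Col1a1 passed as lower (-0.32, adjusted p = 0.0171 in edgeR). The cause of these shifts was not tested. Ocln and Abcb1a, with the lowest counts of the 10 genes, had the widest intervals.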
